A study of Mus musculus with 18 samples.

Results

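The enzymes that place methyl groups on lysine 36 of histone H3 (H3K36) were followed by RNA-seq in cells of the mouse: embryonic stem (ES) cells in culture, and the embryoid bodies (EBs) made from them. The set holds 7 genes of the 23421 in the expression table, chosen by name: Setd2, Nsd1, Nsd2 (also called Whsc1), Nsd3 (also called Whsc1l1), Ash1l, Smyd2 and Setmar. They account for 11 of its 29851 RefSeq transcripts, and all 7 reached an FPKM of at least 1 in some library, as did 14973 genes in all. FPKM counts fragments scaled to transcript length and to the library's mapped fragments, so levels of different genes can be set side by side.

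H3K36 methylation marks transcribed chromatin. Setd2 travels with elongating RNA polymerase II and makes most of the trimethylated form over gene bodies, while the NSD proteins and Ash1l make the mono- and dimethylated forms. Both H3K36me2 and H3K36me3 hinder methylation of lysine 27 on the same histone tail by the Polycomb repressive complex PRC2. Eed is a core subunit of PRC2, and the series holds libraries labelled Eed KO and cells with a hairpin against Setd2. Smyd2 and Setmar are included as enzymes reported to act on H3K36, although Smyd2 is better known for methylating p53 and other non-histone proteins.

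The series has 18 samples of mouse cells, 6 of them RNA-seq libraries with 1 library per group, and its 12 ChIP-seq samples were not used here. EBs labelled Eed KO, EBs wild type, ES cells labelled Eed KO and ES cells wild type came from the E36 line. E14 ES cells carried a hairpin against Setd2 (shSetd2) or a scrambled control hairpin (shCtrl) in the pLKO.1 lentivirus, were selected with puromycin and were harvested on day 4. Every line is of the 129/Ola background and was grown on gelatin in 15% serum with leukemia inhibitory factor (LIF). EBs formed in hanging drops without LIF for 48 h, received 0.5 µM all-trans retinoic acid from day 2 to day 5 and were kept until day 9. The labels give neither the Eed allele nor the number of clones or hairpins. With 1 library per group no test was possible and no p-value is given. A difference of log2(FPKM + 1) of at least 1 in size is called higher or lower, the size rule used throughout.

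The labels were checked before the comparisons. Setd2 had 2.59 FPKM in shSetd2 cells, against 16.8 in shCtrl cells. Eed mRNA, with 77.8 FPKM in the ES library labelled Eed KO and 72.3 in ES wild type, and with 21.8 in the EB library labelled Eed KO and 25.0 in EB wild type, does not check the Eed label, so directions drawn from that label rest on it alone. All 8 ES cell markers (Pou5f1, Nanog, Sox2, Zfp42, Esrrb, Klf2, Dppa5a and Tdgf1) were lower in EBs than in ES cells under either label. Of all expressed genes, 33.1% were called higher or lower between EB and ES wild type. Between the libraries labelled Eed KO the share was 37.7%. Hprt, the purine salvage gene that is deleted in the widely used E14Tg2a cells, had 0.770 and 0.567 FPKM in shSetd2 and shCtrl cells, against 87.7 and 114 in the ES libraries labelled Eed KO and wild type. Relative sequencing depth, with ES wild type set to 1, ranged from 0.798 in the EB library labelled Eed KO to 1.21 in shCtrl.

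Setd2, the trimethylating enzyme, kept much the same mRNA level wherever it was not targeted. The gene spans chromosome 9, positions 110435101 to 110521137 of the mm9 build, exons and introns together, and has 1 transcript in the table. It had 14.9 FPKM in the EB library labelled Eed KO and 16.4 in EB wild type, 18.1 in the ES library labelled Eed KO and 20.3 in ES wild type, and 2.59 in shSetd2 and 16.8 in shCtrl. Only shSetd2 stood apart by the size rule, and both EB values lay slightly below every ES library other than shSetd2. The highest of the other 5 libraries, ES wild type, lay above the lowest, the EB library labelled Eed KO, by less than the size rule.

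**Figure D1:**
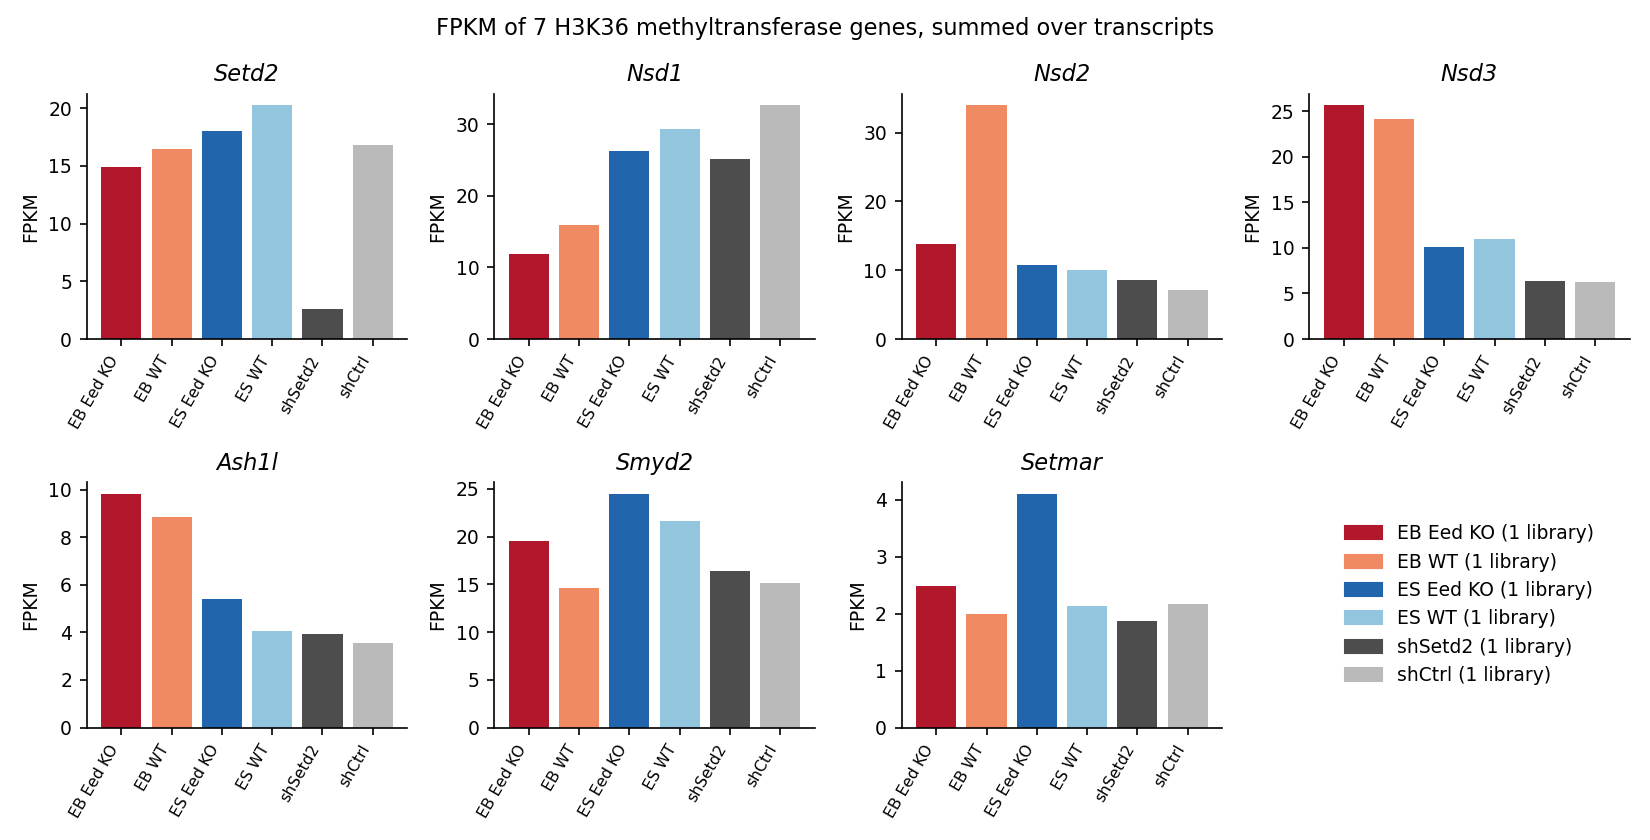
Bars give the FPKM of each gene, summed over its transcripts, in 6 libraries with 1 library per group, so there are no error bars. Setd2 falls to 2.59 in shSetd2 only, Nsd1 is lower in both EB libraries, and Nsd2, Nsd3 and Ash1l are higher in both EB libraries than in any ES library. By main transcripts 59.1% of all expressed genes have EB and ES ranges that do not overlap.

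Nsd1, the enzyme whose human counterpart is mutated in Sotos syndrome, was the most abundant of the 7 in every ES library. Nsd1 was not first in either EB library, but by main transcripts it was close to the first gene, Setd2 at 16.4, in EB wild type. It lies on chromosome 13 from 55311143 to 55419686. Its FPKM was 11.9 in the EB library labelled Eed KO and 16.0 in EB wild type, 26.3 in the ES library labelled Eed KO and 29.3 in ES wild type, and 25.1 in shSetd2 and 32.7 in shCtrl. Both EB libraries lay below all 4 ES libraries. By main transcripts 59.1% of all expressed genes had EB and ES values apart in this way, in either direction. In wild-type cells the EB minus ES difference was -0.84 on the log2(FPKM + 1) scale, inside the size rule, and between the libraries labelled Eed KO it was -1.09, past it.

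Nsd2, whose human counterpart lies in the Wolf-Hirschhorn deletion region and is activated by translocation in myeloma, stood the other way. It spans chromosome 5 from 34185761 to 34240615 and has 3 transcripts in the table, of which NM_001081102 had the highest mean. That transcript had 9.45 FPKM in the EB library labelled Eed KO and 14.9 in EB wild type, 7.23 in the ES library labelled Eed KO and 6.55 in ES wild type, and 4.95 in shSetd2 and 5.22 in shCtrl. Summed over the 3 transcripts, the gene had 13.8 FPKM in the EB library labelled Eed KO and 34.0 in EB wild type, 10.7 in the ES library labelled Eed KO and 10.1 in ES wild type, and 8.53 in shSetd2 and 7.09 in shCtrl. EB wild type was thus the highest library by either measure, and the distance to the others was wider with all transcripts counted.

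Nsd3, a paralogue amplified in some human breast and lung cancers, was high in EBs with or without the Eed KO label. The gene lies on mouse chromosome 8 from 26712778 to 26830139. Its more abundant transcript, NM_001001735, had 13.9 FPKM in the EB library labelled Eed KO and 14.7 in EB wild type, 6.64 in the ES library labelled Eed KO and 7.44 in ES wild type, and 3.93 in shSetd2 and 3.89 in shCtrl. The other transcript, NM_001081269, had 11.8 FPKM in the EB library labelled Eed KO and 9.45 in EB wild type, 3.45 in the ES library labelled Eed KO and 3.50 in ES wild type, and 2.49 in shSetd2 and 2.38 in shCtrl. The libraries thus fell into 3 levels, with E14 cells lowest, E36 ES cells between and EBs highest.

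Ash1l, a Trithorax-group protein that opposes Polycomb silencing in flies, had larger values in EBs than in ES cells, like Nsd3. By main transcripts it was the weakest of the 4 mono- and dimethylating genes in 5 of 6 libraries, the EB library labelled Eed KO excepted. It lies on chromosome 3 from 88769734 to 88883297 with 1 transcript. It had 9.84 FPKM in the EB library labelled Eed KO and 8.86 in EB wild type, 5.39 in the ES library labelled Eed KO and 4.07 in ES wild type, and 3.92 in shSetd2 and 3.56 in shCtrl. The 2 EB values lay above all 4 ES values, where 59.1% of all expressed genes were split in either direction.

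Smyd2 and Setmar showed no such separation, which was found for 59.1% of all expressed genes by main transcripts. Smyd2, on chromosome 1 from 191704371 to 191746167, had 19.6 FPKM in the EB library labelled Eed KO and 14.7 in EB wild type, 24.5 in the ES library labelled Eed KO and 21.6 in ES wild type, and 16.4 in shSetd2 and 15.1 in shCtrl. Setmar, which in anthropoid primates is fused to a transposase and in mouse is not, was the least abundant gene in all 6 libraries. It lies on chromosome 6 from 108015039 to 108027121, and its main transcript NM_178391 had 2.30 FPKM in the EB library labelled Eed KO and 1.85 in EB wild type, 2.88 in the ES library labelled Eed KO and 1.76 in ES wild type, and 1.71 in shSetd2 and 2.16 in shCtrl. For both genes the EB and ES ranges overlapped.

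Ordered by the most abundant transcript, ES wild type ran Nsd1, Smyd2, Setd2, Nsd3, Nsd2, Ash1l, Setmar, and EB wild type ran Setd2, Nsd1, Nsd2, Nsd3, Smyd2, Ash1l, Setmar. From Setd2 at 16.4 to Smyd2 at 14.7 the first 5 genes of EB wild type were close together, and with no replicates the order among them cannot be told from library error. In the sum over transcripts Nsd2 came first in EB wild type and Nsd3 first in the EB library labelled Eed KO. The ratio of Nsd1 to Nsd2, both by their main transcript, was 1.26 in the EB library labelled Eed KO and 1.07 in EB wild type, 3.64 in the ES library labelled Eed KO and 4.47 in ES wild type, and 5.08 in shSetd2 and 6.26 in shCtrl. With transcripts summed it was below 1 in EBs, at 0.861 in the library labelled Eed KO and 0.470 in wild type. The summed ratio was 2.46 in the ES library labelled Eed KO and 2.91 in ES wild type, and 2.94 in shSetd2 and 4.61 in shCtrl.

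The summed level of the 7 genes, all transcripts counted, was 98.1 FPKM in the EB library labelled Eed KO and 116 in EB wild type, 99.2 in the ES library labelled Eed KO and 98.4 in ES wild type, and 64.8 in shSetd2 and 83.7 in shCtrl. Nsd1 made up 12.1% and 13.8% of that sum in the EB libraries labelled Eed KO and wild type, against 26.6% and 29.8% in the ES libraries with the same labels. Nsd2 and Nsd3 together with Nsd1 made up 52.3% and 63.9% of the sum in those EB libraries and 47.5% and 51.1% in those ES libraries. Total FPKM differed between libraries, from 452782 in the EB library labelled Eed KO to 598935 in ES wild type. As a share of that total the 7 genes took 0.0217% and 0.0236% in the EB libraries labelled Eed KO and wild type. The shares were 0.0182% and 0.0164% in the matching ES libraries, and 0.0122% in shSetd2 and 0.0142% in shCtrl.

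**Figure D2:**
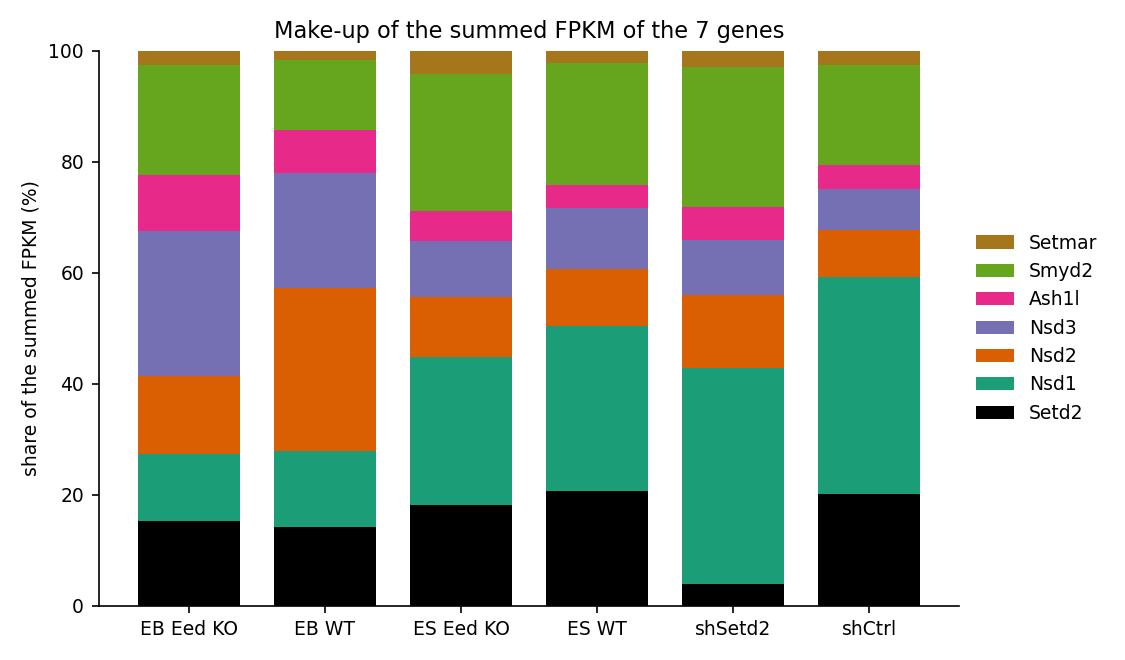
Each bar splits the summed FPKM of the 7 genes (all transcripts) into the share of each gene in percent, 1 library per bar. Nsd1 takes 12.1% and 13.8% in the EB libraries labelled Eed KO and wild type and 26.6% and 29.8% in the matching ES libraries, and Setd2 takes 3.99% in shSetd2 against 20.1% in shCtrl.

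The comparison of EBs with ES cells asks how these genes move with differentiation under retinoic acid. In wild-type cells Nsd2 was higher by the size rule at 1.08, with Ash1l at 0.96 and Nsd3 at 0.90 just inside it, while Nsd1 stood at -0.84, Smyd2 at -0.53, Setd2 at -0.29 and Setmar at 0.05. The size rule called 1 of 7, against 33.1% of all expressed genes in that comparison. The median of the 7 was 0.05 and that of all expressed genes 0.01. The ratio of FPKM in EB wild type to ES wild type was 2.28 for the main Nsd2 transcript, 2.18 for Ash1l, 1.98 for the main Nsd3 transcript and 0.545 for Nsd1. The calls on Nsd3 and Ash1l depended on the scaling between libraries, and with totals made equal Nsd2, Nsd3 and Ash1l were all higher, a rescaling that moved the median of all genes to 0.25. With transcripts summed 2 of 7 were called, Nsd2 at 1.66 and Nsd3 at 1.07, against 32.7% of expressed genes. The 8 housekeeping genes had a median of -0.72 in this comparison.

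Between the libraries labelled Eed KO, Nsd1 was lower at -1.09, and Nsd3 at 0.96, Ash1l at 0.76 and Nsd2 at 0.34 were inside the size rule. Setd2 stood at -0.26, Smyd2 at -0.31 and Setmar at -0.23. The rule called 1 of 7, against 37.7% of expressed genes, with medians of -0.23 for the 7 and -0.03 for all. The median of the 8 housekeeping genes was -0.99 here, near the value of Nsd1. The call on Nsd1 did not hold with equal totals, where it stood at -0.83 and Nsd3 and Ash1l were higher at 1.22 and 1.01, nor with upper-quartile scaling, where it stood at -0.91. With transcripts summed Nsd3 was called as well, at 1.27, so 2 of 7 were called against 37.2% of expressed genes. The comparisons with and without the label share no library.

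Across all 6 libraries, 3 of the 7 genes (Nsd2, Nsd3 and Ash1l) had both EB values above all 4 ES values and 1 (Nsd1) had both below. Such a split was found for 59.1% of expressed genes in either direction, so 4 of 7 is near the background. Setd2 was counted as overlapping only through its own knockdown library. Without shSetd2 its lowest ES value was 16.8, just above its highest EB value of 16.4. The 4 ES libraries differ in line, label and virus and are not replicates of each other. In the wild-type EB library 5 of 6 neuron markers (Tubb3, Map2, Dcx, Stmn3, Elavl3 and Ina) were higher than in ES wild type. In that comparison 33.1% of all expressed genes were called. The summed FPKM of the main transcripts of the 6 neuron markers was 449.9 in EB wild type, against 109 in ES wild type. In bulk RNA a shift in the cells present and a shift in RNA per cell cannot be told apart, and the part of either in these differences was not tested.

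**Figure D3:**
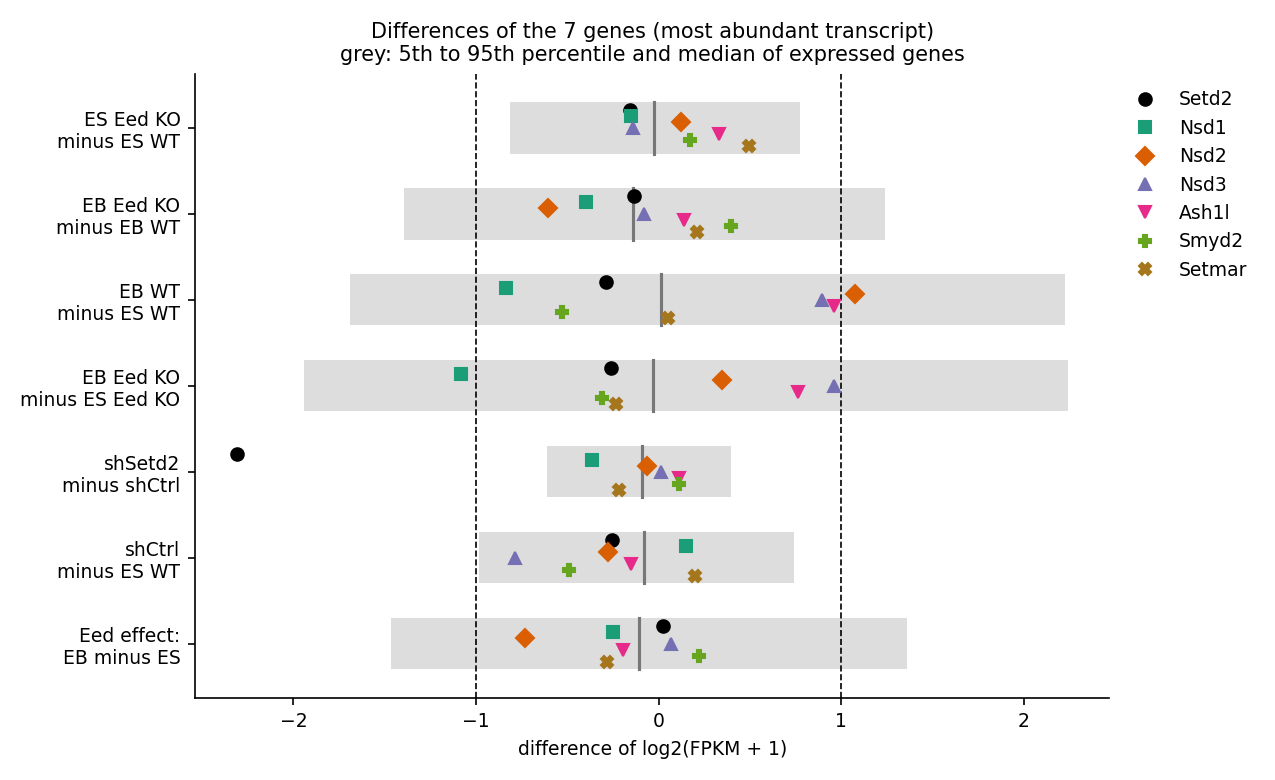
Points give each gene's difference of log2(FPKM + 1) by its most abundant transcript in 7 comparisons, with grey bars for the 5th to 95th percentile and a line for the median of 14973 expressed genes. Dashed lines mark the size rule of 1. Setd2 at -2.31 in shSetd2 minus shCtrl, Nsd2 at 1.08 in EB minus ES wild type and Nsd1 at -1.09 between the libraries labelled Eed KO are the points beyond it.

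Setd2 knockdown asks whether the remaining enzymes move when the trimethylating one is depleted. Setd2 had 2.59 FPKM in shSetd2 cells and 16.8 in shCtrl cells, a ratio of 0.154 and a difference of -2.31, the target of the hairpin. It ranked 63 among decreases over all expressed genes. The other 6 genes stayed inside the size rule, with Nsd1 at -0.37, Setmar at -0.22, Nsd2 at -0.07, Nsd3 at 0.01, and Ash1l and Smyd2 both at 0.11. The rule called 1 of 7, Setd2 itself, against 1.98% of expressed genes, and the median of all genes was -0.09. None of the 3 NSD genes or Ash1l was higher by the rule while Setd2 was low. Nsd2 turned from -0.07 to a positive value under each rescaling, but the median of all genes also moved, to between 0.01 and 0.03. With transcripts summed Nsd2 reached 0.24. Its transcript NM_175231 had 2.15 FPKM in shSetd2 and 0.476 in shCtrl, while NM_001081102 and NM_001177884 stood at -0.07 and 0.02.

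The yardstick between control ES cells, shCtrl against ES wild type, differed in line, virus and puromycin together and carried neither Eed nor Setd2 loss by its labels. Nsd3 differed most there, at -0.79, followed by Smyd2 at -0.49, Nsd2 at -0.28, Setd2 at -0.26, Setmar at 0.20, Nsd1 and Ash1l at 0.15 and -0.15. No gene of the 7 was called, against 7.48% of expressed genes. Chromosome 8, which carries Nsd3, had a median of -0.37 over its 782 expressed genes in this comparison, against -0.08 for all genes, and relative to its chromosome Nsd3 stood at -0.41. For Nsd3 the difference between control lines was of the same order as that between EB and ES wild type.

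The Eed comparison in ES cells asks whether H3K36 enzymes respond at the mRNA level to loss of PRC2. No gene of the 7 passed the size rule, against 5.76% of expressed genes. Setmar at 0.49 and Ash1l at 0.33 had the largest differences, Smyd2 stood at 0.17, Nsd2 at 0.12, Nsd3 at -0.14, Nsd1 at -0.15 and Setd2 at -0.16. The median of the 7 was 0.12 and that of all expressed genes -0.03. Setmar and Ash1l lie on chromosomes 6 and 3, whose expressed genes had medians of 0.37 and 0.25 in the same comparison. Relative to those medians Setmar stood at 0.12 and Ash1l at 0.08. Whether the chromosome shift is part of their difference was not tested.

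Of the 3 genes with several transcripts, Setmar differed most in its division among them between the ES library labelled Eed KO and ES wild type, with 70.3% and 82.5% in the main one. Its minor transcript NM_001276356 had 1.22 FPKM there and 0.372 in ES wild type, was listed at 0 in shCtrl, and lay between 0.136 and 0.187 in the other 3 libraries. Summed over both transcripts Setmar had 4.10 FPKM in the ES library labelled Eed KO, against 2.13 in ES wild type, a difference of 0.71. At such low values few fragments lie behind a transcript, and their number is not known from the table.

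In EBs the library labelled Eed KO was set against EB wild type, and the outcome for Nsd2 depended on how its transcripts were counted. By the main transcript Nsd2 stood at -0.61 and no gene of the 7 was called, against 17.3% of expressed genes. Summed over transcripts it had 13.8 FPKM in the EB library labelled Eed KO and 34.0 in EB wild type, a difference of -1.24 and the only call among the 7, against 16.8% of expressed genes by the same count. Nsd1 stood at -0.40, Setd2 at -0.13, Nsd3 at -0.08, Ash1l at 0.14, Setmar at 0.21 and Smyd2 at 0.39. The median of all genes was -0.14 there, next to the value of Setd2. The signs of Setd2 and Nsd3 changed under some rescalings, and relative to their chromosomes Ash1l stood at -0.17 and Setmar at -0.09.

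The minor Nsd2 transcripts made up most of that difference. NM_001177884 had 4.34 FPKM in the EB library labelled Eed KO and 13.0 in EB wild type, and NM_175231 was listed at 0 in the EB library labelled Eed KO and had 6.02 in EB wild type. In ES cells the same transcripts had 1.64 and 1.83 FPKM under the Eed KO label, and 1.99 and 1.52 in wild type. The main transcript made up 68.5% of Nsd2 in the EB library labelled Eed KO, against 44.0% in EB wild type. In the 4 ES libraries that share lay between 58.0% and 73.6%, so EB wild type was the library that stood apart. The authors' software divided reads among transcripts of 1 gene, so a value of 0 for 1 transcript can come from that division.

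The marker lists moved with this comparison too. All 6 neuron markers were lower in the EB library labelled Eed KO, with a summed FPKM of their main transcripts of 1.72 against 449.9 in EB wild type. The main transcript of Map2 was listed at 0 in the EB library labelled Eed KO and had 41.8 in EB wild type, but over both its transcripts the gene had 5.18 and 46.8. Dcx, over its 4 transcripts, had 0.0964 in the EB library labelled Eed KO and 38.8 in EB wild type. Of 7 expressed mesoderm and endoderm markers 6 were higher, with sums of 736 against 163, of which Col1a2 made up 588.5 and 138. All 8 ES cell markers were lower, with sums of 18.9 against 239. Of 5 expressed trophoblast markers 2 were higher, with sums of 85.0 against 35.1, of which Krt8 made up 62.4 and 28.7. In the same comparison 17.3% of all expressed genes were called. The part of these cell types in the Nsd2 difference was not tested.

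**Figure D4:**
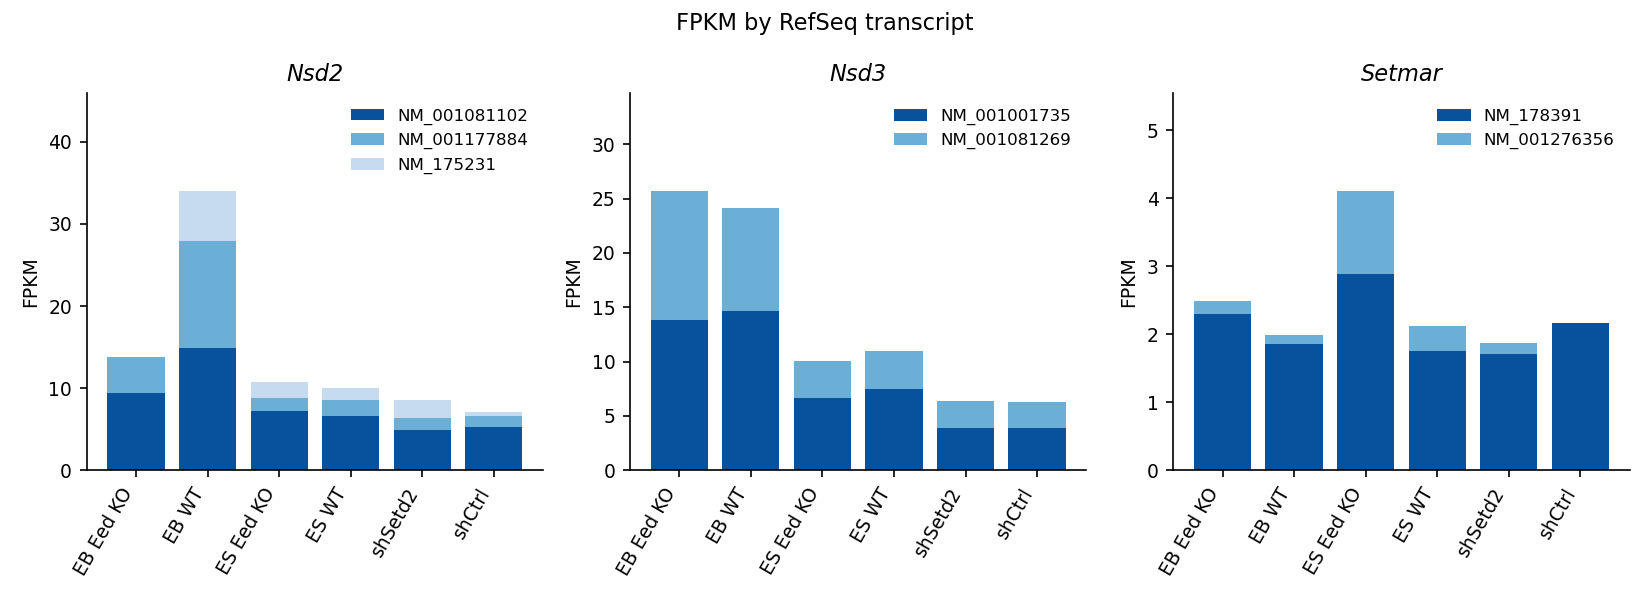
Stacked bars give the FPKM of each RefSeq transcript of Nsd2, Nsd3 and Setmar in the 6 libraries. Nsd2 reaches 34.0 in EB wild type with 3 transcripts and 13.8 in the EB library labelled Eed KO, where NM_175231 is listed at 0, and Setmar reaches 4.10 in the ES library labelled Eed KO.

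The Eed difference in EBs was then set against that in ES cells, 2 differences that share no library. For the main transcripts it was -0.73 for Nsd2, -0.28 for Setmar, -0.25 for Nsd1, -0.20 for Ash1l, 0.02 for Setd2, 0.06 for Nsd3 and 0.22 for Smyd2. No gene was called, against 19.0% of expressed genes, and the median of all genes was -0.11. With transcripts summed Nsd2 stood at -1.32 and was called lower, 1 of 7 against 18.4% of expressed genes. The difference was not tested, since each value rests on 1 library.

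The genes that remove, read or accompany the mark were taken from lists. Among 8 expressed genes listed as H3K36 demethylases, 3 were lower and 1 higher in EB than in ES wild type. Riox2, a JmjC-domain oxygenase whose action on H3K36 is not established, had 7.48 FPKM in EB wild type and 25.5 in ES wild type. Kdm4c, which demethylates both H3K9 and H3K36, had 9.84 in EB wild type and 27.01 in ES wild type. Riox1, a relative of Riox2, was lower as well at -1.12. Kdm4b, a paralogue of Kdm4c, was the higher one, with 17.6 in EB wild type and 7.37 in ES wild type. The list's median was -0.39, and 33.1% of all expressed genes were called in that comparison.

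Of 17 H3K36 readers, 4 were lower and 1 higher in EB than in ES wild type, where 33.1% of all expressed genes were called. Dnmt3b, the de novo DNA methyltransferase whose PWWP domain binds H3K36me3, had 2.94 FPKM in EB wild type and 72.5 in ES wild type by its main transcript, a difference of -4.22. Msh6, the mismatch repair subunit with a PWWP domain, had 30.5 in EB wild type and 118 in ES wild type. Mtf2, a PRC2 accessory subunit with a Tudor domain, had 1.05 in EB wild type and 34.3 in ES wild type by its main transcript, a difference of -4.10 that became -1.52 with its 5 transcripts summed. Hdgfl3, a PWWP protein of the HDGF family, was the higher one, at 15.0 in EB wild type and 3.53 in ES wild type. The PWWP reader Zmynd11 stood at 0.87. Between the libraries labelled Eed KO, 6 of the 17 readers were lower and 2 higher, or 5 and 3 with transcripts summed. In that comparison 1 of the 8 genes listed as demethylases was lower, Riox2 at -1.69, and none higher. There 37.7% of all expressed genes were called.

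Dnmt3b was also the 1 of 17 readers past the size rule in the knockdown, where 1.98% of all expressed genes were called. It had 72.7 FPKM in shSetd2 cells and 34.7 in shCtrl cells, a difference of 1.04. With its 9 transcripts summed it stood at 0.97 and was not called. Between control lines, shCtrl against ES wild type, it stood at -1.04, so shSetd2 cells at 72.7 were close to ES wild type at 72.5. The 8 listed demethylases and the 13 elongation genes had no member past the rule in the knockdown, against the same 1.98% of expressed genes. Their medians were -0.13 and -0.04.

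Elongation factors and Setd2 partners had 13 expressed genes, of which 2 were lower and none higher in EB than in ES wild type, where 33.1% of all expressed genes were called. These were Cdk12, a kinase of the polymerase tail, at -2.28, or -1.51 with transcripts summed, and Cdc73, a subunit of the PAF complex, at -1.09. Supt6, the histone chaperone that links Setd2 to the polymerase through its partner Iws1, stood at -0.74, and Iws1 at 0.03. Between the libraries labelled Eed KO 4 of the 13 were lower, Leo1 and Hnrnpl in addition, where 37.7% of all expressed genes were called. The list's median was -0.57 in wild type and -0.75 under the label.

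Of 16 expressed methyltransferases for other histone lysines, 2 were lower and none higher in EB than in ES wild type, with a median of -0.53 and a range from -1.48 (Suv39h2) to 0.37 (Suv39h1), where 33.1% of all expressed genes were called. Neither call held with transcripts summed, Suv39h2 then standing at -0.70 and the H4K20 enzyme Kmt5b at -0.50. The H3K36 set ran from -0.84 to 1.08 with a median of 0.05, the value of the weak gene Setmar. With transcripts summed it ran from -0.84 to 1.66 with a median of -0.07. Setdb1, an H3K9 enzyme on chromosome 3, was the 1 of the 16 called in the Eed comparison of EBs, where 17.3% of all expressed genes were called. It had 35.9 FPKM in the EB library labelled Eed KO and 12.5 in EB wild type. The median of chromosome 3 was 0.31 there, against -0.14 for all genes. The difference between the lists was not tested. Of 3 further genes reported to act on H3K36, Setd3 lay between 27.2 and 30.0 FPKM in all 6 libraries. Setd5 reached 83.0 in the EB library labelled Eed KO and 49.7 in EB wild type. It lies on chromosome 6, whose median was 0.30 in that comparison. The part of the chromosome shifts in the differences of Setdb1 and Setd5 was not tested. The meiotic enzyme Prdm9 was higher in EB wild type, at 2.88, than in ES wild type, at 0.629, a difference of 1.25.

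**Figure D5:**
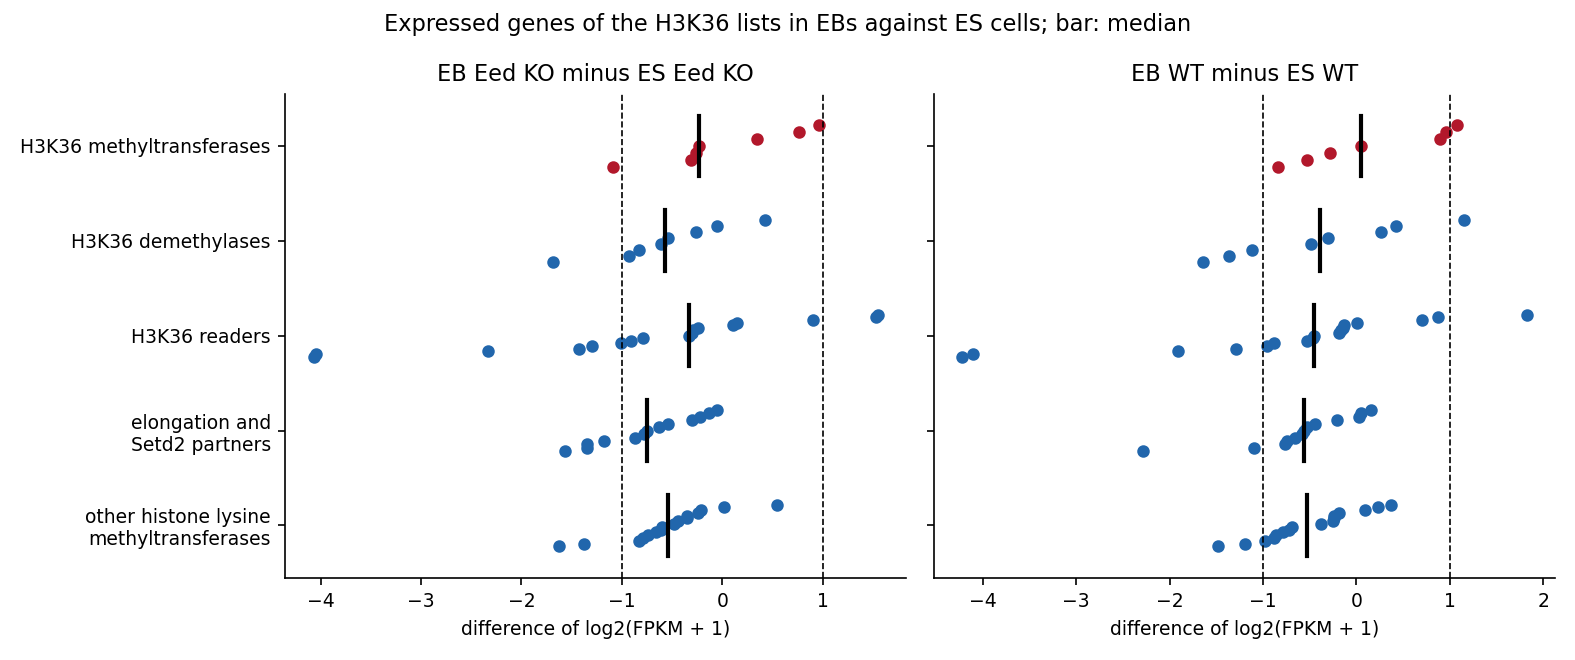
Each point is an expressed gene of a list, placed by its difference of log2(FPKM + 1) between EBs and ES cells, for the libraries labelled Eed KO (left) and wild type (right), and bars mark list medians. In wild type the H3K36 methyltransferases have a median of 0.05, the demethylases -0.39, the readers -0.46, the elongation genes -0.57 and the other histone lysine methyltransferases -0.53.

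Likeness of profile was measured as the root mean square difference between centred log2(FPKM + 1) values over the 6 libraries, among 12226 genes. Each gene was taken by its main transcript, and distances with transcripts summed were not computed, which bears on Nsd2, Nsd3 and Setmar. Within the set the closest pairs were Smyd2 and Setmar at 0.22 and Nsd2 and Ash1l at 0.24. Nsd3 with Ash1l at 0.27 and Nsd2 with Nsd3 at 0.29 followed. The Pearson correlation was 0.57 for Smyd2 with Setmar and 0.88 for Nsd2 with Ash1l. It was 0.94 for Nsd3 with Ash1l and 0.93 for Nsd2 with Nsd3. Nsd1 was far from Nsd2, Nsd3 and Ash1l, between 0.91 and 1.12. Outside the set the nearest to Nsd1 were Kri1 at 0.028, Ppp1ca at 0.046 and Bud23 at 0.055. The nearest to Nsd3 were Rabgap1l at 0.062, the reader Zmynd11 at 0.073 and Zfp90 at 0.076. Nsd2 lay nearest to Tor1aip1, Gatc and Vma21, Ash1l to Tbc1d2b, C2cd2 and Nktr, Smyd2 to Ptpn18, Mtap and Cul1, and Setmar to Spc25, Pygo2 and Anp32e, all within 0.084.

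Setd2 had no such close companion, with Atp10d at 0.21, Syt3 at 0.31 and Actr3 at 0.32. These are genes that, like Setd2, were low in shSetd2 cells. Atp10d, which has 1 transcript, had 0.00055 FPKM there and 2.52 in shCtrl. Syt3 and Actr3 have several transcripts, and summed over them Syt3 had 2.03 in shSetd2 and 2.05 in shCtrl, and Actr3 had 89.7 and 97.2, so their likeness rested on the division among transcripts.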

How the data were processed

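The submitters' processing notes name TopHat, Cuffdiff and the mm9 build. Their versions and options, and how libraries were scaled, are not given. The authors' deposited values are FPKM per RefSeq transcript. Libraries came from Trizol RNA and a TruSeq RNA v2 kit, per the labels' protocols, a kit that does not mark strand, so antisense reads cannot be told apart. Fragment totals are not in the table. Relative depth was estimated from the most common ratio of values under 0.2 FPKM over transcripts spanning more than 2000 bases.

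Accessions were matched to symbols through a RefSeq table of GRCm38.p6 (551 of 29851 unmatched). The transcript with the highest mean stood for each gene, and sums over transcripts were an alternative. Of the 7 genes, 3 have several transcripts. Starts are written from 1. Differences used a pseudocount of 1, which understates those of weak genes, over genes with FPKM of at least 1 in at least 1 library. List genes named were the largest differences past the size rule with FPKM of at least 5, up to 4 per list, and others for context were chosen after their values were seen. The 3 nearest profiles per gene were named. Members and 14 lists were chosen with earlier results of these data known, and the comparison of EB with ES ranges after the values were seen. The functions were tested on simulated data. Python 3.11.15, pandas 2.3.3 and NumPy 2.4.6 were used.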

Additional observations from a re-analysis of the deposited data

Results flagged for a closer look

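The Eed difference of Nsd2 had opposite signs in EBs and in ES cells. By the main transcript it was -0.61 in EBs, library labelled Eed KO minus wild type, and 0.12 in ES cells, a difference of -0.73. Each value rests on 1 library per group and the difference was not tested.

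The EB minus ES difference of Setmar had opposite signs with and without the Eed KO label, at -0.23 between the libraries labelled Eed KO and 0.05 between the wild-type libraries, which are -0.28 apart. With transcripts summed the values were -0.55 between the libraries labelled Eed KO and -0.07 between the wild-type libraries, no longer opposite in sign, and -0.48 apart. The difference was not tested.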

How the results depend on the processing

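No paired analysis was possible because each group holds 1 library. The number of the 7 genes past the size rule was recomputed under 10 alternatives, and under an 11th, with shCtrl as the control, in the ES Eed comparison. It was unaffected in the ES Eed comparison and in the knockdown under all of them. In EB minus ES wild type the count of 1 became 2 with a pseudocount of 0.1, 0 with a pseudocount of 5, 3 with upper-quartile scaling, 3 with equal totals, 2 with transcripts summed and 5 with the size rule at 0.5. Between the libraries labelled Eed KO the count of 1 became 2 with a pseudocount of 0.1, with median-of-ratios scaling, with equal totals and with transcripts summed, 0 with a pseudocount of 5, and 3 at 0.5. With upper-quartile scaling and relative to the chromosome median it stayed at 1, with Nsd3 (1.13 and 1.02) in place of Nsd1 (-0.91 and -0.99). For the Eed comparison in EBs and for the Eed effect in EBs minus ES cells, the count of 0 became 1 with transcripts summed and 1 at 0.5. For the control lines it became 1 at 0.5. Of 490 values for single genes, 461 kept their side of the rule and 18 changed sign, none of them past the rule. With shCtrl as the control, Nsd3 in the ES library labelled Eed KO stood at 0.64 in place of -0.14. With a minimum of 5 FPKM Setmar has no value. Without fragment counts, the precision of low values such as those of Setmar is unknown.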
